A study of Bos taurus with 15 samples.

Results

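The genes described here are 10 immediate early genes: 4 of the FOS family (FOS, FOSB, FOSL1 and FOSL2), 3 of the JUN family (JUN, JUNB and JUND), ATF3, EGR1 and IER3. They were taken by symbol from the deposited table, which lists 38001 bovine genes. Each symbol stood for 1 identifier, and all 10 were among the 11834 genes with enough counts to be tested.

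FOS and JUN proteins, with relatives such as ATF3, share a basic region and a leucine zipper, pair with one another and bind DNA as the factor AP-1. Transcription of many of these genes starts within minutes of a growth factor, cytokine or mechanical signal, through MAP kinases that activate ready-made factors such as SRF and ELK1 at their promoters, and their mRNAs are short-lived. EGR1 is a zinc finger factor with the same kind of start. IER3 is induced with them but is not a DNA-binding factor. It takes part in cell survival and in the control of ERK signalling. In cartilage and meniscus, AP-1 is known for the control of matrix-degrading proteases and inflammatory genes.

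RNA was measured in bovine meniscal fibrochondrocytes, the matrix-forming cells of the knee meniscus, at day 28 of culture. All 5 groups were kept for 3 days in a medium with 10% fetal bovine serum for growth, followed by 25 days in chondrogenic medium with ascorbic acid, dexamethasone and 10 ng/ml of TGF-β3, and each group has 3 libraries. The no mold group is cells in collagen without a mold, called "Blob" in the sample titles. The 4 molded groups are the middle and the post regions of engineered menisci made in molds with post anchors (anchored middle, anchored post) or without them (unanchored middle, unanchored post), so that every comparison is between cultured tissues and none with native meniscus. Whether the 3 libraries of a group stem from different tissues is not in the labels, so p-values measure only how far these libraries spread, which may be technical.

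Totals ran from 2060763 to 4466539 counts in no mold and from 2986906 to 7415631 in the molded groups. Libraries 1 and 3 of no mold and library 2 of anchored middle were the 3 shallowest. Analyses without these 3 keep library 2 as the only no mold library. Whether calls lost there go with depth or with the fewer libraries was not tested. The share of counts from 13 mitochondrial genes was 1.52% ± 0.186 in no mold and between 1.76% ± 0.125 and 2.21% ± 0.144 in the molded groups. Libraries thinned to the depth of the shallowest were used as an alternative analysis. Beyond that, the part of depth and of this share in the results was not tested. All 14 fibrochondrocyte markers passed the filter, and their summed level was 43735 to 54825 CPM in no mold. It was 46671 to 61010 CPM in unanchored middle, 40693 to 48808 CPM in unanchored post and 41418 to 51261 CPM in anchored post, which overlap no mold, while anchored middle lay wholly above it at 56262 to 60766 CPM. In the molded mean 6 of the 14 were called lower and 1 higher. Some markers of other cell types were at or near 0 over all 15 libraries together. PECAM1 had 10 counts, PTPRC 25, CKM 5, SOX10 1 and RGS5 1, while ITGAM, MYOD1, MYOG, ALAS2 and SLC4A1 had 0. Other genes of the same lists were not near 0. ERG of the endothelial list had 5938 counts, CD14 of the leukocyte list 326 and DES of the muscle list 772. Of the mural list ACTA2 had 77550.8, CSPG4 6405 and MYH11 1953.5, and S100B of the Schwann and neural list had 30403.5. Of the endothelial list 1 of 9 genes passed the filter, of the leukocyte list 2 of 10, of the muscle list 2 of 9, of the mural list 5 of 7, of the Schwann and neural list 2 of 6 and of the red blood cell list 2 of 7. The summed levels of the endothelial and leukocyte lists overlapped between no mold and each molded group, and those of the other 4 lists did not in every group. Schwann and neural markers summed to 439 to 455 CPM in no mold and lay lower in unanchored middle (335 to 391), unanchored post (345 to 398) and anchored post (383 to 436), with anchored middle at 370 to 488. Mural markers summed to 808 to 1004 CPM in no mold, 846 to 1138 in the unanchored groups and 1056 to 1393 in the anchored groups, which lay wholly above no mold. Muscle markers summed to 14.2 to 29.9 CPM in no mold and 7.47 to 19.5 in the molded groups, below no mold in both middle groups. Red blood cell markers were at 2.98 to 8.10 CPM in no mold and 0.146 to 6.47 in the molded groups, below no mold in unanchored middle and anchored post. In the molded mean 1 muscle and 1 red blood cell gene were called lower and 1 mural gene higher. The part of these cell types in the results was not tested.

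Values below are TMM-normalised counts, scaled to a common library size as CPM, unless called counts, each ± is an SD over 3 libraries, and the standard error (SE) of a log2 fold change is that of the edgeR model. These libraries are primed at the poly-A tail and CPM is not divided by gene length, so a level is compared between libraries and not between genes. A member is called where the edgeR adjusted p, over all genes tested, is under 0.05. In bulk RNA, fewer cells that express a gene and less RNA per cell cannot be told apart.

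Tissue made in molds had less mRNA of 4 of the 10 genes than cells in collagen without a mold, and of none more. FOSL1 fell by the most, 1.83 times, followed by IER3 at 1.39, FOS at 1.33 and JUNB at 1.32 times. Over all genes, 16% were called in this comparison of the mean of the 4 molded groups with no mold, 7.91% as lower and 8.04% as higher. The median log2 fold change of the 10 genes was -0.26, against 0.00 over all genes tested. In 3 of the 10 genes every molded library lay below every no mold library, as in 4.29% of all genes.

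**Figure D1:**
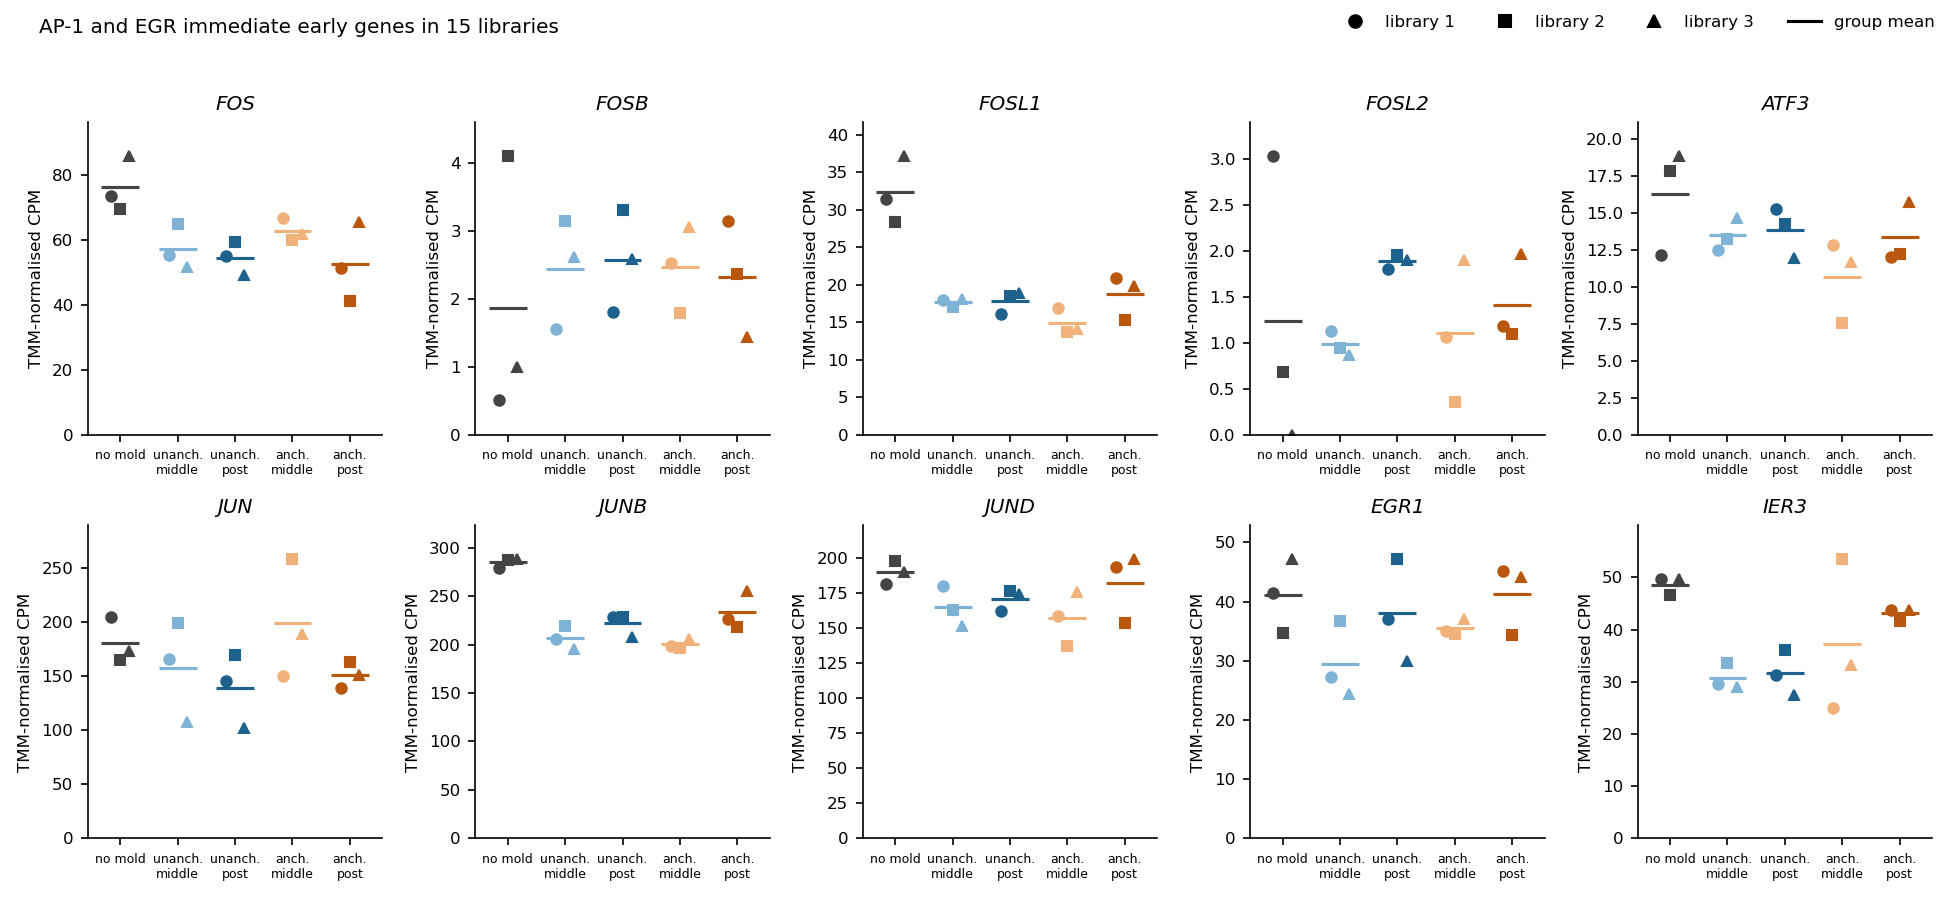
TMM-normalised CPM of the 10 genes in each library (symbols) of the 5 groups on the x axis, with the group mean as a line and the y axis from 0. FOS, FOSL1 and JUNB were lower in all 12 molded libraries than in the 3 no mold libraries, while IER3 was higher in anchored middle library 2 (53.5 CPM) than in any no mold library.

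The FOS family has the identifiers ENSBTAG00000004322 (FOS), ENSBTAG00000008182 (FOSB), ENSBTAG00000006194 (FOSL1) and ENSBTAG00000023929 (FOSL2). Of these, FOSL1 (FRA-1, a FOS relative without the strong activating region of FOS) separated the groups most widely. FOSL1 stood at 31.4, 28.3 and 37.2 CPM in no mold libraries 1, 2 and 3. In the unanchored tissues it was 18, 17 and 18.1 CPM in the middle and 16.1, 18.5 and 18.9 CPM in the post region. Anchored middle gave 16.9, 13.7 and 14.2 CPM, and anchored post 20.9, 15.3 and 19.9 CPM. The highest molded library was thus below the lowest no mold library, and within the molded tissues anchored middle had the lowest mean, at 14.9 ± 1.78 CPM. The log2 fold change of the molded mean was -0.87 (SE 0.121, edgeR adjusted p = 2.92e-05), and FOSL1 was called in each of the 4 molded groups on its own, from -0.76 in anchored post (edgeR adjusted p = 0.00304) to -1.06 in anchored middle (edgeR adjusted p = 8.29e-05). It was past the threshold in 24 of 24 alternative analyses of the molded mean, with log2 fold changes from -1.05 to -0.70.

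FOS, the founding member and partner of the JUN proteins, was 73.4, 69.5 and 85.8 CPM in no mold. Its levels were 55.1, 64.7 and 51.6 CPM in unanchored middle, 55.0, 59.3 and 49.1 CPM in unanchored post, 66.7, 60.0 and 61.6 CPM in anchored middle, and 51.3, 41.1 and 65.4 CPM in anchored post. The gap was narrow, with the highest molded library at 66.7 CPM and the lowest no mold library at 69.5 CPM, and no mold library 3 stood above the other two. The log2 fold change was -0.41 (SE 0.112, edgeR adjusted p = 0.0136). Without no mold library 3 it was -0.33 and not past the threshold (edgeR adjusted p = 0.136), and without the 3 shallowest libraries it was -0.28 (edgeR adjusted p = 0.423).

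FOSB and FOSL2 were near the limit of detection. FOSB had 1, 18 and 2 counts in the no mold libraries and 5 to 21 counts in the molded ones. FOSL2 had 6, 3 and 0 counts in no mold and 1 to 15 counts in the molded libraries, and the count of 0 allows up to 1.49 CPM in that library (3 counts, for counting error only). With log2 fold changes of -0.01 (95% interval -0.81 to 0.80) and 0.33 (-0.80 to 1.47), a change of the size seen in FOS was not detectable for either gene at this depth.

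The JUN family, with the identifiers ENSBTAG00000068635 (JUN), ENSBTAG00000012046 (JUNB) and ENSBTAG00000052791 (JUND), was called in 1 of its 3 members. JUNB, a JUN relative that is a weaker activator than JUN on many sites, was 279, 287 and 288 CPM in no mold. It was 206, 219 and 195 CPM in unanchored middle, 229, 229 and 208 CPM in unanchored post, 198, 196 and 206 CPM in anchored middle, and 227, 218 and 255 CPM in anchored post. No molded library reached the no mold range, and both sides were tight, with an SD of 4.71 CPM in no mold. The log2 fold change was -0.40 (SE 0.0706, edgeR adjusted p = 0.000407). JUNB was past the threshold in 23 of 24 alternatives. The exception kept only no mold library 2 (log2 fold change -0.42, edgeR adjusted p = 0.0835).

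JUN, the member that can bind DNA with itself as well as with FOS, showed no such separation. It was 205, 165 and 173 CPM in no mold and ran from 102 to 258 CPM over the 12 molded libraries, with a median of 157 CPM. The lowest of all libraries was unanchored post 3 and the highest anchored middle 2, so that both ends of its range were molded. The log2 fold change was -0.17 (SE 0.155, 95% interval -0.49 to 0.15, edgeR adjusted p = 0.502). JUND, the family member that is made steadily in most resting cells, was 181, 198 and 190.0 CPM in no mold and 137 to 199 CPM in the molded libraries (median 169 CPM). Its log2 fold change was also -0.17 (SE 0.0881, 95% interval -0.35 to 0.01, edgeR adjusted p = 0.195). JUND carries 45.7% of its counts in values that are not whole numbers, as when a read is shared among genes. That is near the share over all genes, which was 41.5% to 47.4% of the counts of a library. JUND also overlaps the gene IQCN in RefSeq's annotation of ARS-UCD2.0, so its level is uncertain.

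ATF3 (ENSBTAG00000008545), a stress-induced relative that represses as a homodimer, was 12.2, 17.8 and 18.9 CPM in no mold and 7.54 to 15.7 CPM in the molded libraries (median 12.6 CPM). The sides overlapped only through no mold library 1, and the log2 fold change of -0.36 (SE 0.162) was not past the threshold (edgeR adjusted p = 0.14). EGR1 (ENSBTAG00000010069) was 41.5, 34.7 and 47.1 CPM in no mold and 24.4 to 47.2 CPM in the molded libraries (median 35.9 CPM). Its log2 fold change was -0.17 (SE 0.142, 95% interval -0.46 to 0.13, edgeR adjusted p = 0.472). Of the EGR1 counts 33.5% stand in values that are not whole, below the share over all genes in every library.

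IER3 (ENSBTAG00000011358) stood at 49.6, 46.6 and 49.6 CPM in no mold. The unanchored libraries were lower, with 29.5, 33.6 and 29.0 CPM in the middle and 31.3, 36.1 and 27.5 CPM in the post region. Anchored post gave 43.8, 41.6 and 43.8 CPM, just under no mold, and anchored middle spread from 25.0 and 33.1 CPM in libraries 1 and 3 to 53.5 CPM in library 2. That single library keeps the 2 sides from separating, and it is also one of the 3 shallowest. The log2 fold change of the molded mean was -0.48 (SE 0.143, edgeR adjusted p = 0.0243). It was past the threshold in 18 of 24 alternatives, and it was not past it when no mold library 1, 2 or 3 was left out (edgeR adjusted p = 0.0945, 0.0736 and 0.102). With libraries thinned to equal depth it was -0.34 and not past the threshold either (edgeR adjusted p = 0.103).

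Taken group by group, every called member was lower than in no mold. The 4 comparisons share the same no mold libraries, so their values stand side by side and are not independent. In unanchored middle 3 members were called (FOSL1, JUNB and IER3), where 14.8% of all genes were called and 7.2% were called lower. Unanchored post had 4 members (FOSL1, JUNB, FOS and IER3), with 9.02% of all genes called and 4.09% lower. Anchored middle had 2 (FOSL1 and JUNB), with 13.3% of all genes called and 6.2% lower. Anchored post had 2 (FOSL1 and FOS), with 5.56% of all genes called and 2.64% lower. JUNB had log2 fold changes of -0.46, -0.36, -0.51 and -0.29 in that order, the last with an edgeR adjusted p of 0.0612. IER3 had -0.66, -0.62, -0.46 and -0.17, and was past the threshold in the 2 unanchored groups. FOS had -0.40, -0.47, -0.26 and -0.51, and JUN -0.19, -0.38, 0.13 and -0.25.

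These group counts rest on few libraries. Unanchored post had 2 calls without no mold library 1 or without its own library 1, and 1 without no mold library 3 or without its own library 3. Anchored post had 1 call without no mold library 1 or 3 or without its own library 1 or 2, and unanchored middle had 5 without its own library 2. The shares of all genes called in single groups under these settings are not given here. A loss of calls particular to the members thus cannot be told from a general loss. Over all genes the molded mean had 1888 calls, against 1127 without no mold library 1, 856 without no mold library 3 and 335 without the 3 shallowest libraries, when 2 members (FOSL1 and JUNB) were called.

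**Figure D2:**
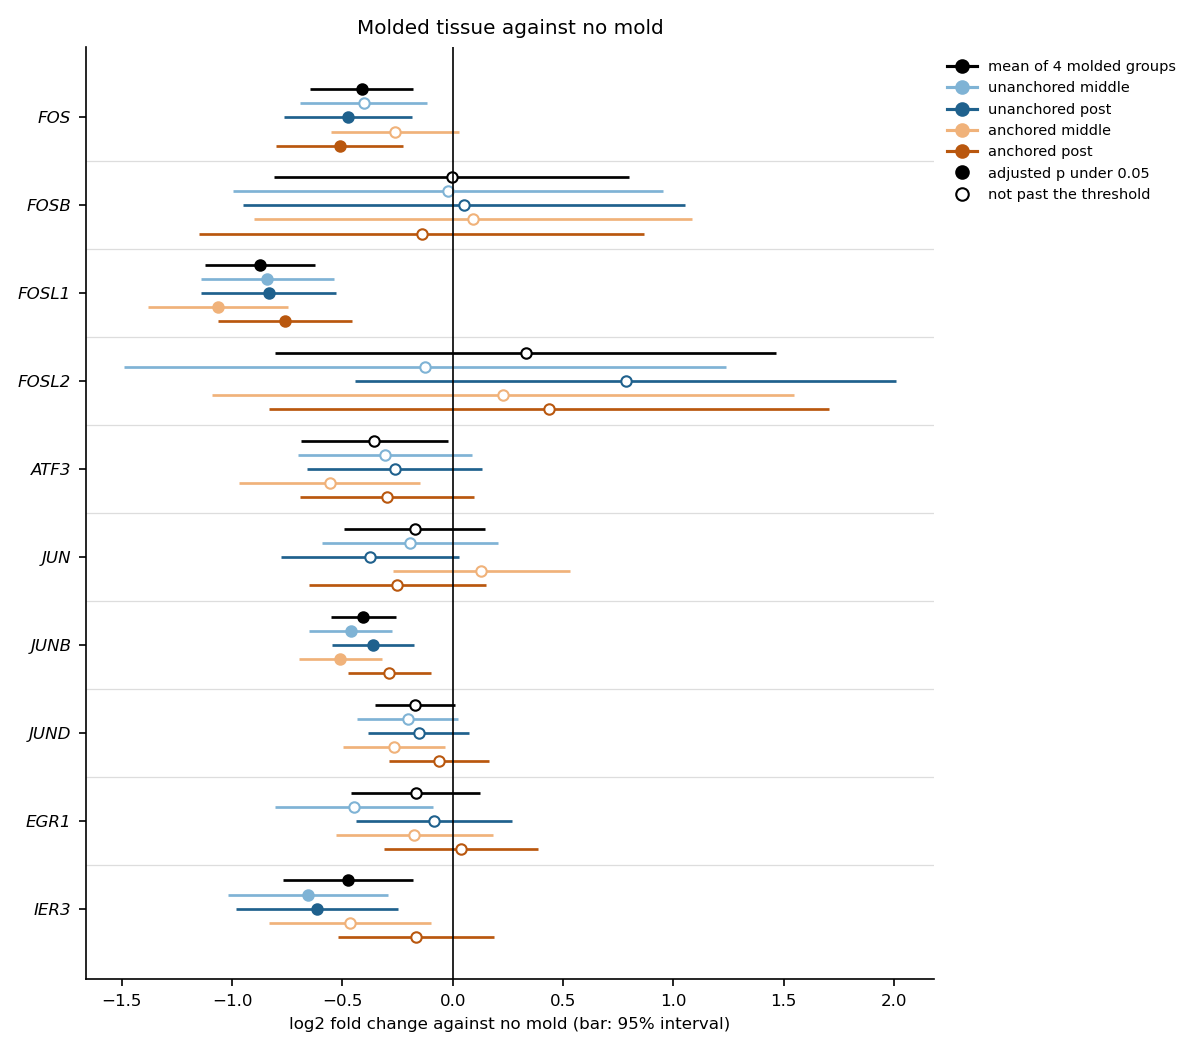
Log2 fold changes against no mold (x axis) of each gene, for the mean of the 4 molded groups and for each molded group, with 95% intervals as bars and filled points where the edgeR adjusted p is under 0.05. All filled points lie left of 0, FOSL1 is filled in all 5 lines, and the bars of FOSB and FOSL2 are the widest.

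The levels of 2 genes of a family within a library do not depend on how the library was scaled, and 3 such ratios were compared after the values had been seen. Adjustment over these 3 does not cover other pairs that could have been taken, so the p-values only describe the chosen ratios. The level of JUND is uncertain, as said above. FOSL1 per 100 FOS counts was 40.8 to 43.4 in no mold and 22.8 to 40.8 in the molded libraries, with a median of 30.8. The groups met at 1 library, anchored post 1, and anchored middle was lowest at 23.7 ± 1.47. The exact two-sided permutation test over 455 arrangements of the 15 libraries, whose smallest p is 0.0022, gave p = 0.0154 (0.0231 after adjustment over the 3 ratios). JUND per 100 JUNB counts went the other way, at 64.9 to 69.0 in no mold and 70.0 to 87.5 in the molded libraries (median 77.8), with no overlap (exact permutation p = 0.0044, adjusted 0.0132). JUN per 100 JUNB was 57.4 to 73.4 in no mold and 48.9 to 131.7 in the molded libraries, and did not pass (exact permutation p = 0.378). The permutation treats the 12 molded libraries as 1 condition, though they come from different groups and some may share a tissue. Spread was also unequal, with an SD of the log2 ratio of FOSL1 to FOS of 0.0461 in no mold and 0.284 in the molded libraries. Without the 3 shallowest libraries a single no mold library is left, and the exact permutation p was 0.25 for FOSL1 to FOS and 0.0833 for JUND to JUNB, with log2 differences of -0.38 and 0.19 in place of -0.47 and 0.23.

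**Figure D3:**
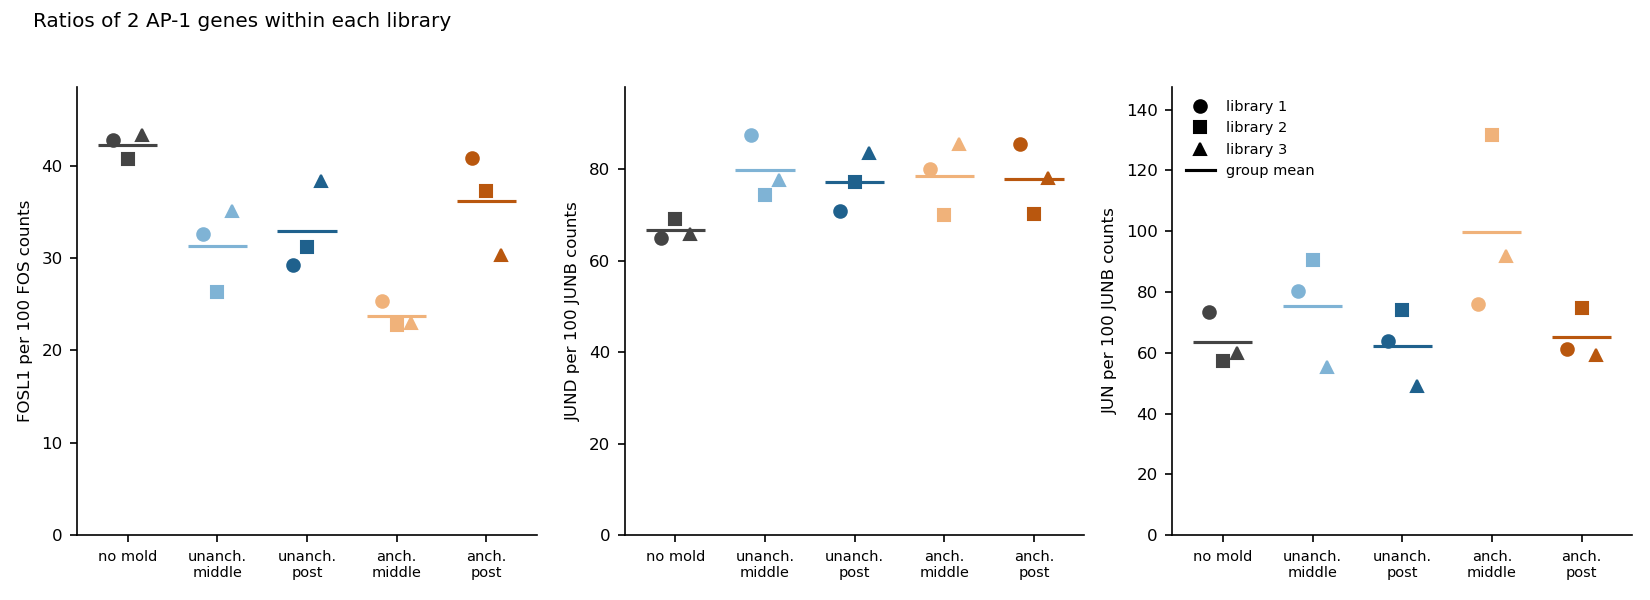
Counts of FOSL1 per 100 FOS counts, JUND per 100 JUNB counts and JUN per 100 JUNB counts (y axes from 0) in each library of the 5 groups (x axes), with group means as lines. The no mold libraries lie together at 40.8 to 43.4 and 64.9 to 69.0 in the first and second panels, and in the last panel anchored middle 2 stands highest at 131.7.

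Shares of the summed CPM of a family can be compared between groups. They do not rank its genes by level, since CPM is not divided by gene length. Shares of the JUN family include JUND, whose level is uncertain. FOS itself made up 68.2% ± 0.848 of the FOS family in no mold and between 69.8% ± 3.54 (anchored post) and 77.3% ± 1.60 (anchored middle) in the molded groups. JUNB made up 43.5% ± 1.29 of the JUN family in no mold, 41.8% ± 1.74 in unanchored post, 41.2% ± 0.875 in anchored post, 39.3% ± 3.12 in unanchored middle and 36.1% ± 2.96 in anchored middle. The share of JUN in its family was 27.6% ± 2.86 in no mold and reached 35.5% ± 7.28 in anchored middle, the group with the largest spread. These shares are descriptions and were not tested.

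Between the post and the middle regions no member was called. Within unanchored tissue 0 of 10 were called, with 0.448% of all genes called, and 1 member (EGR1) had an unadjusted p under 0.05. Within anchored tissue 0 of 10 were called (1.92% of all genes), and 2 members (JUNB and FOSL1) had an unadjusted p under 0.05. Averaged over both mold types 0 of 10 were called (8.51% of all genes), and 3 had an unadjusted p under 0.05. The share of all genes with an unadjusted p under 0.05 was not worked out, so these member counts have no background beside them. DESeq2 called 0, 0 and 1 member in these 3 comparisons, and the share of all genes it called is not given here.

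EGR1 was 27.2, 36.8 and 24.4 CPM in unanchored middle and 37.1, 47.2 and 29.9 CPM in unanchored post. It was 35.1, 34.5 and 37.1 CPM in anchored middle and 45.1, 34.3 and 44.2 CPM in anchored post. The post values lay higher on average in both mold types, with overlap in each, and the averaged log2 difference of post against middle was 0.29 (95% interval 0.06 to 0.52, edgeR adjusted p = 0.111). JUNB was higher in all 3 anchored post libraries (218 to 255 CPM) than in all 3 anchored middle libraries (196 to 206 CPM), as were 7.82% of all genes. Its averaged log2 difference was 0.16 (95% interval 0.03 to 0.29, edgeR adjusted p = 0.114), which DESeq2 put past the threshold (0.17, DESeq2 adjusted p = 0.0334).

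JUN leaned towards the middle, with an averaged log2 difference of -0.28 (95% interval -0.56 to -0.01, edgeR adjusted p = 0.202). It was past the threshold without unanchored middle library 3 (-0.39, edgeR adjusted p = 0.0441). For IER3 the averaged difference was 0.17 (95% interval -0.07 to 0.41, edgeR adjusted p = 0.41). Without anchored middle library 2 it was 0.31 (edgeR adjusted p = 0.0267), and within anchored tissue 0.57 (edgeR adjusted p = 0.0185) in place of 0.30 (edgeR adjusted p = 0.43). FOSL2 was higher in all 3 unanchored post libraries (10 to 11 counts) than in all 3 unanchored middle libraries (5 to 8 counts), with a log2 difference of 0.91 whose 95% interval ran from -0.08 to 1.89, as were 10.1% of all genes.

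**Figure D4:**
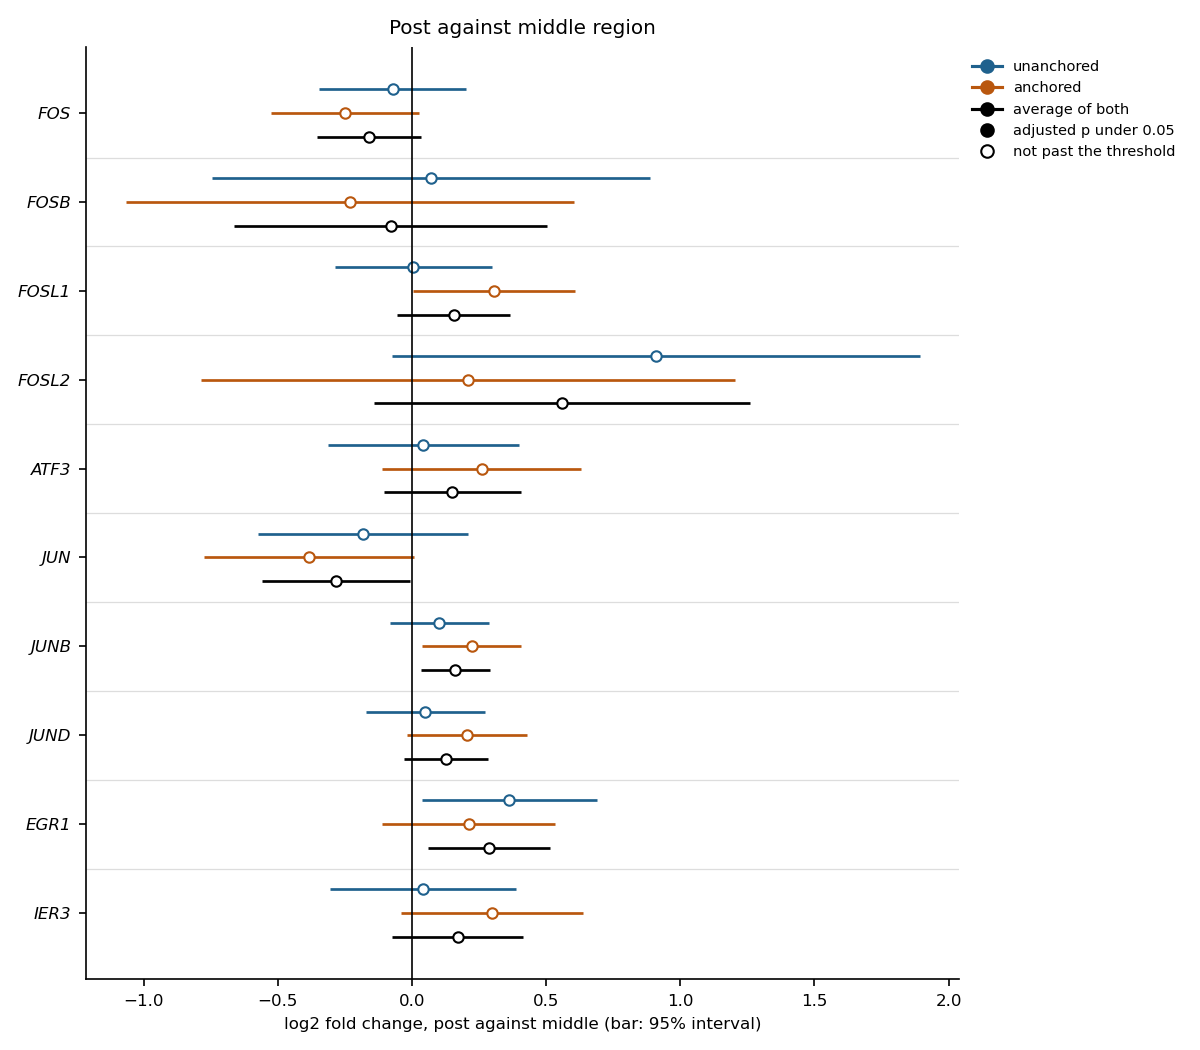
Log2 differences of the post against the middle region (x axis) for each gene in unanchored tissue, anchored tissue and their average, with 95% intervals as bars and open points where the edgeR adjusted p is 0.05 or more. All points are open, and the averaged intervals of JUNB (0.03 to 0.29), EGR1 (0.06 to 0.52) and JUN (-0.56 to -0.01) leave out 0 before adjustment.

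Post anchors gave no called member and no called gene at all. In the middle region 0 of 10 members were called, in the post region 0 of 10, averaged over regions 0 of 10, and in the interaction of anchoring with region 0 of 10, each against 0% of all genes with edgeR. DESeq2 called 0 members in each of the 4, and the share of all genes it called is not given here. At an unadjusted p under 0.05 there were 0, 1, 1 and 0 members. The share of all genes at that threshold was not worked out. The single member there was IER3. It was 41.6 to 43.8 CPM in anchored post and 27.5 to 36.1 CPM in unanchored post, which do not overlap, as in 4.99% of all genes in that direction. The log2 difference was 0.45 (SE 0.164, 95% interval 0.11 to 0.79) with an edgeR adjusted p of 1.00. For the other 9 members the 95% intervals of the averaged log2 difference included 0, the narrowest for JUNB (-0.12 to 0.14), JUND (-0.14 to 0.17) and FOS (-0.14 to 0.25).

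Libraries of the same group differed more in some members than in others. The variation between libraries of a group beyond counting noise, as the biological coefficient of variation that edgeR estimates, was 16.3% for JUN, above that of 94.1% of the genes tested, and 19.9% for the sparse FOSB. It was 12.9% for IER3, 12.2% for EGR1, 10.8% for FOS, 8.10% for FOSL1 and 7.67% for JUNB, against a median of 8.91% over all genes. FOSL1 and JUNB are thus the steadiest members. In both unanchored regions library 2 was the highest and library 3 the lowest for FOS, JUN, JUNB, EGR1 and IER3. JUN, for example, went from 108 to 199 CPM in the middle and from 102 to 169 CPM in the post region. Within anchored middle, library 2 was the highest for JUN and IER3 (2.14 times the lowest library for IER3) and the lowest for the other 8 members.

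The wider pathway was read from lists of genes, each described by counts of called genes. The share of counts in values that are not whole differs among the genes named below. It is 0% for HMOX1 and SRF, 52.5% for RPS6KA3, 55.1% for MAFF and for HSPE1, and 61.1% for KLF4. For SGK1 it is 66.3%, for ODC1 77.0%, for the 2 identifiers of HSPD1 79.5% and 81.1%, and for DNAJA1 100%. Levels with a large share are uncertain. Of the other AP-1 family genes with a basic leucine zipper 7 of 11 were tested, of which 3 fell and 1 rose in the molded mean (over all genes 7.91% were called lower and 8.04% higher, the background for each list below), with a median log2 fold change of -0.44 against 0.00 over all genes. MAFF, a small MAF protein without an activating region, fell from 73.7 ± 5.99 CPM in no mold to between 42.9 ± 10.0 and 56.7 ± 1.96 CPM (log2 fold change -0.53, edgeR adjusted p = 0.00127). JDP2, a repressor of AP-1 sites, had -0.44 (edgeR adjusted p = 0.00691) and ATF7 -0.86 (edgeR adjusted p = 0.00533). ATF2, the partner of JUN that stress kinases phosphorylate, rose (0.32, edgeR adjusted p = 0.0334). Without no mold library 2 or 3, or without the 3 shallowest libraries, the list had 2 falls and 0 rises.

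In the branch of ATF4 and CREB, 14 of 14 genes were tested, 2 fell (CREB5 -0.63, ATF5 -0.34) and 1 rose (DDIT3, 0.42), so 3 of 14 were called where 16% of all genes were. The list had 0 falls and 1 rise without no mold library 1 or 3 or without the 3 shallowest libraries, and 1 fall and 0 rises without no mold library 2. Of the other EGR and NAB genes 3 of 6 were tested and 0 were called, with edgeR or with DESeq2, nor was any at an unadjusted p under 0.05 (0 of 3). EGR2 was 4.73 CPM in no mold and 5.05 CPM in the molded mean, and the EGR co-repressors NAB1 and NAB2 had log2 fold changes of -0.12 and -0.06.

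Among other immediate early genes, most of those called were lower as well. Of 37 listed, 32 were tested, 10 fell and 2 rose, with a median log2 fold change of -0.23. BTG1, a brake on cell division, fell from 769 ± 85.5 CPM to between 432 ± 29.9 and 501 ± 24.2 CPM (log2 fold change -0.72, SE 0.0763). KLF4, a zinc finger factor, fell from 180.1 ± 8.78 CPM to between 123 ± 2.17 and 147 ± 11.4 CPM (-0.43, SE 0.0806). DUSP5, a nuclear phosphatase that switches off ERK, fell from 26.2 ± 2.30 CPM to between 14.8 ± 1.80 and 19 ± 4.00 CPM (-0.67, SE 0.137). SGK1, a kinase whose gene glucocorticoids and serum induce, rose from 54.5 ± 4.09 CPM to between 71.3 ± 3.15 and 77.3 ± 6.02 CPM (0.46, SE 0.0878). The edgeR adjusted p of these 4 ran up to 0.00185. The list had 4 falls and 2 rises without no mold library 3, and 1 fall and 1 rise without the 3 shallowest libraries.

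Upstream of AP-1, of 23 listed kinases and serum response factors all were tested and 1 was called in the molded mean, where 16% of all genes were. SRF, the factor that binds the serum response element of FOS, JUNB and EGR1, fell from 13.4 ± 0.402 CPM to between 7.66 ± 1.05 and 10.3 ± 1.37 CPM (log2 fold change -0.59, edgeR adjusted p = 0.0177). It was not called without no mold library 1 or without no mold library 3, when the list had 0 calls, as without the 3 shallowest libraries. The list had 1 rise and 0 falls with libraries thinned to equal depth, 1 fall and 1 rise with the replicate number as a block, with library totals alone, without the filter on low counts or without no mold library 2, and 2 falls without unanchored middle library 3 or anchored middle library 2. Single groups held further upstream calls against no mold. Unanchored middle (14.8% of all genes called) had RPS6KA3 (-0.80, edgeR adjusted p = 0.0112) and MAP2K7 (-0.65, edgeR adjusted p = 0.0457) lower. Anchored middle (13.3%) had MAP2K6 higher (1.19, edgeR adjusted p = 0.00895) and the sparse ELK1 lower (-1.79, 0.514 CPM, edgeR adjusted p = 0.0482). These were past the threshold in 20 of 25, 9 of 25, 22 of 25 and 8 of 22 alternatives. Of the ERK feedback genes, which hold FOSL1, EGR1 and IER3, 14 of 16 were tested and 3 fell in the molded mean: FOSL1, IER3 and DUSP5. Without the 3 shallowest libraries 1 of them was called.

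Genes known as AP-1 targets were lower in the molded mean in 10 of the 20 tested of 26 listed, and higher in 0, with a median log2 fold change of -0.38. HMOX1, the heme-degrading enzyme, fell from 208 ± 30.5 CPM to between 105 ± 12.9 and 126 ± 15.9 CPM (log2 fold change -0.84, SE 0.108). TIMP1, an inhibitor of matrix metalloproteinases, fell from 3178 ± 234 CPM to between 2083 ± 173 and 2294 ± 116 CPM (-0.57, SE 0.0824). PLAUR, the urokinase receptor, had -0.45 (SE 0.0828) and ODC1, the first enzyme of polyamine synthesis, -0.44 (SE 0.0801), and the edgeR adjusted p of these 4 ran up to 0.000703. The list had 6 falls without no mold library 1 and 4 without the 3 shallowest libraries. These genes answer to other factors too, so the list does not measure AP-1 activity.

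Heat shock genes, the chaperones of the stress response, were mostly higher where they were called. Of 15 tested rows (14 symbols, with HSPD1 under 2 identifiers), 4 rose and 1 fell, with a median log2 fold change of 0.15. HSPD1 and HSPE1, the mitochondrial chaperonin pair, had 0.31 (the other identifier of HSPD1, at 0.23, was not past the threshold) and 0.37. The endoplasmic reticulum chaperone HSPA5 had 0.29 and the co-chaperone DNAJA1 0.30. These 4 rises are named by lowest p, and the fall had a higher p. In unanchored post alone HSPB1 was called lower (-0.48, edgeR adjusted p = 0.0136), from 466 ± 7.54 to 334 ± 42.6 CPM. HSPD1 was called higher there under both identifiers (0.47 and 0.43). The summed level of the list was 4971 to 5279 CPM in no mold and 5015 to 5622 CPM in the molded libraries, above no mold in unanchored post (5325 to 5503) and anchored post (5456 to 5622). The counts were 1 rise without no mold library 1, 2 rises without no mold library 3 and 0 calls without the 3 shallowest libraries.

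**Figure D5:**
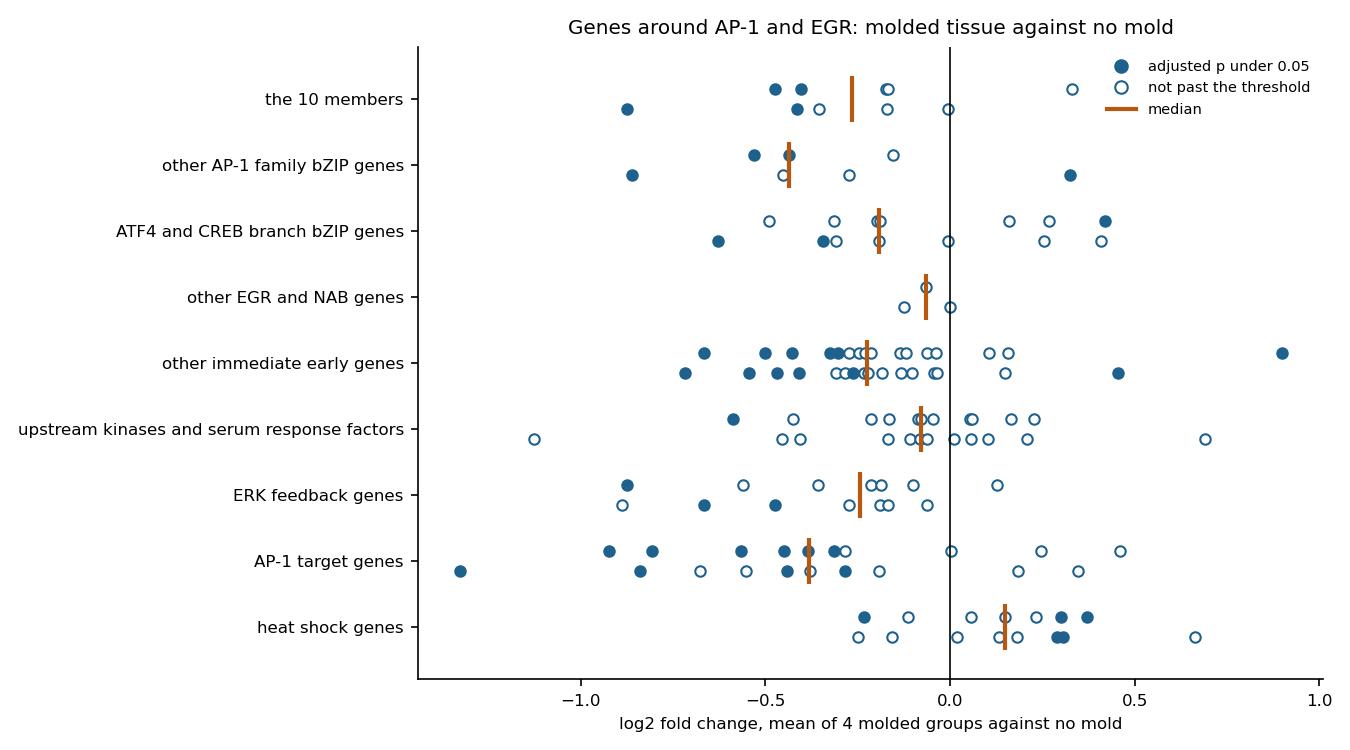
Log2 fold changes of the molded mean against no mold (x axis) of each tested gene (points) of the members and 8 lists (y axis), filled where the edgeR adjusted p is under 0.05, with the list's median as a bar. The median is -0.38 for AP-1 targets, -0.26 for the 10 members, -0.23 for other immediate early genes and 0.15 for heat shock genes.

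Between post and middle, with both mold types averaged, 8.51% of all genes were called. Of the lists around the members, 1 of 14 tested genes of the ATF4 and CREB branch, 3 of 32 other immediate early genes, 3 of 23 upstream genes, 1 of 14 ERK feedback genes and 2 of 15 heat shock rows were called. With edgeR 0 were called of 7 other AP-1 family genes, 20 AP-1 targets and 3 EGR and NAB genes. Of these 2, 5 and 0 had an unadjusted p under 0.05, a threshold at which the share of all genes was not worked out. Of the fibrochondrocyte markers 8 of 14 were lower in post and 1 higher, and the part of this in the other values was not tested. CREM, a cAMP-responsive factor, was 3.35 ± 0.173 and 4.04 ± 0.853 CPM in the middle regions (unanchored, anchored) and 5.33 ± 0.393 and 5.80 ± 0.929 CPM in the post regions (log2 difference 0.63, edgeR adjusted p = 0.0172). ETV1, an ERK-dependent ETS factor, was higher in post (0.39, edgeR adjusted p = 0.0225), as was GADD45A (0.26, edgeR adjusted p = 0.0173), while the mRNA-decay factors ZFP36L1 and ZFP36L2 were lower (-0.34 and -0.23). Of the upstream genes, RPS6KA3 and MAP2K1 were higher in post (0.49 and 0.24) and MAP2K6 lower (-0.62). HSPD1 was higher in post under both identifiers (0.33 and 0.30).

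The genes whose profiles over the 15 libraries were most like those of the called members were found by the root mean squared difference of gene-centred log2 CPM among 7203 candidate genes. Nearest to FOSL1 were SMIM14 (0.143), ST3GAL4 (0.159) and RGS3 (0.160), against a median difference of 0.436 over all candidates. JUNB had JAM2 (0.0754), GNB2 (0.0761) and LRRC41 (0.0861), against a median of 0.264. FOS had RBM14 (0.125), RAPGEF2 (0.133) and EIF4ENIF1 (0.140), and IER3 had HNRNPUL2 (0.143), DKKL1 (0.152) and GPI (0.157). None of these 12 genes is on one of the lists. Among the members themselves the closest pair was JUNB and JUND (0.136), followed by FOS and JUNB (0.200).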

How the data were processed

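RNA libraries of 15 samples (3 in each of 5 groups, from the sample labels) were primed with oligo-dT and carry molecular identifiers, per the labels' protocols. The tools named in the submitters' processing notes are STAR 2.7, SAMtools 1.21, Subread 2.1.1 with featureCounts, and MultiQC 1.33. Build, annotation and any collapsing of counts by identifier: not given in the sources used here. Uncollapsed counts would hold PCR copies. The authors deposited expected counts, which were rounded to whole numbers for testing, and CPM, which equals the count over the library's total. Spike-in rows (92) were left out.

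All libraries entered a single quasi-likelihood fit with 1 mean for each group (edgeR 4.0.16, R 4.3.3, TMM, filterByExpr with a count of 10 and a total of 15). It gave 12 two-sided contrasts with Benjamini-Hochberg adjustment over 11834 genes and a threshold of 0.05. A molded mean is the mean of the log values of the 4 groups. Ratios were tested by exact permutation of libraries. Alternatives were DESeq2 1.42.0, other scaling and filters, thinning, left-out libraries and a replicate block. The code was tested on simulated data.

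The members and the lists were chosen with earlier results of these data known. Named were all 10 members, and up to 4 called genes of each list by lowest p for the molded mean and up to 3 for other contrasts. Also named were defining markers, with low and with high counts. For each called member the 3 genes most like it were named, with a symbol and a mean of at least 10 CPM. EGR2, NAB1 and NAB2 were named as the tested genes of a list without calls. No sequences or coordinates were used, and RefSeq (ARS-UCD2.0) served only for genes that overlap a member.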

Additional observations from a re-analysis of the deposited data

Results flagged for a closer look

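The table has 92 rows for spike-in sequences, which no comparison uses. Summed over the 92 rows, they held 18 counts in the library with the fewest (no mold 1) and 70 in the one with the most (anchored post 3). No row of these was used for scaling, and what was added to the samples is not given in the sources used here.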

How the results depend on the processing

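Of 2944 values of members recomputed under alternatives, 2870 kept their side of the threshold, 48 lost it, 26 passed it newly and 0 past the threshold changed sign. Values that were not called could change sign: in the molded mean FOSB kept its sign in 13 of 23 alternatives, FOSL2 in 20 of 22 and EGR1 in 22 of 24. Numbers of called members were 4, 3, 4, 2 and 2 against no mold, in the order molded mean, unanchored middle and post, anchored middle and post. Without the 3 shallowest libraries they were 2 for the molded mean and 0 for unanchored post and anchored post. Without no mold libraries 1 and 3, an alternative chosen after seeing the data, they were 1 for the molded mean and 0 for unanchored middle, unanchored post and anchored post. Library totals alone gave 2 for unanchored post and 1 for anchored post, thinning gave 2 for unanchored post, and fitting only the groups compared gave 5 for unanchored middle. Leaving out 1 library at a time gave 2 to 4 for the molded mean, 2 to 5 for unanchored middle, 1 to 4 for unanchored post, 2 to 3 for anchored middle and 1 to 3 for anchored post. Post against middle, with 0 called, had 1 (anchored) and 2 (averaged) without the filter on low counts, 1 (averaged) with DESeq2, 1 and 1 without the 3 shallowest libraries, and 0 to 1 for both when 1 library was left out. The cause of these changes was not tested, beyond the fewer libraries in some. Shares of all genes called under each setting are not set beside these counts. A change particular to the members thus cannot be told from a general one. Deviations of same-numbered libraries correlated at -0.17 to 0.26 over 30 pairs (median 0.02), 6 of them above 0.1, so the numbers were not taken to pair the samples. Between unanchored middle and post they were 0.0916, 0.107 and 0.264, each above the different-numbered values there (at most 0.062), and between anchored middle and post -0.0288, 0.0791 and 0.138. This is a hint from the data and not from the design, since the labels do not say whether a middle and a post library of one number come from the same tissue. Set side by side by number, EGR1 was higher in post in 3 of 3 unanchored pairs. In the anchored libraries numbered 2 it was not, at 34.5 CPM in middle and 34.3 CPM in post. JUN was lower in post in 6 of 6 pairs over both mold types. These genes were picked from the members, and the share of all genes with such pairs was not worked out. With the replicate number as a block, the counts of called members were 4, 3, 4, 2 and 2 against no mold and 0 in the other 7 comparisons. Depth limits FOSB and FOSL2 most.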
